A study of Bos taurus with 8 samples.

Results

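The superoxide dismutases SOD1 and SOD2, the glutathione peroxidases GPX1, GPX3 and GPX4, the peroxiredoxin PRDX1, the thioredoxin reductase TXNRD1, the quinone reductase NQO1 and the paired subunits GCLC and GCLM of glutamate-cysteine ligase were examined in the liver of Japanese Black fetal calves. These 10 antioxidant enzyme genes were measured by 21 of the 33439 array probes tested, chosen because the RefSeq accession of the probe belonged to 1 of the genes. The 10 genes stood among 10860 genes with a detected probe. The LN fetuses (L5, L6, L8 and L9) came from dams given 60% of their nutritional requirement, and the HN fetuses (L1, L2, L3 and L10) from dams given 120%, before and throughout pregnancy. All were at 8.5 months post-conception (day 260 ± 8.3 of gestation), and no group fed exactly its requirement was among them, so that LN and HN are compared with each other and not with a standard diet. By the study's methods, dams were inseminated with male-sorted semen of a single sire, and fetuses were picked for low body weight in LN and for high body weight in HN. Liver RNA of each fetus was labelled with Cy3 and hybridised to 1 Agilent bovine array.

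Superoxide, a by-product of respiration and of several oxidases, is turned into hydrogen peroxide by superoxide dismutases, and the peroxide is then removed by glutathione peroxidases, peroxiredoxins and catalase. Glutathione is built in the cytosol, where glutamate-cysteine ligase catalyses its rate-limiting step, and liver is its main producing organ. Thioredoxin reductase returns oxidised thioredoxin to its working form with NADPH, and the transcription factor NRF2 drives NQO1, GCLC, GCLM, TXNRD1 and PRDX1 when cells meet electrophiles or oxidants. The comparison asked whether the liver of undernourished fetuses carried other transcript levels of this defence.

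For none of the 10 genes did the difference between LN and HN pass limma's test against the spread between fetuses. The mean level was higher in LN for 8 genes and lower for GPX3 and GPX4, beside 51.6% of all detected genes that were higher in LN. In limma, 0 of 10 members and 0 of their 21 probes reached an unadjusted p of 0.05, which 6.05% of all detected genes and 6.32% of all tested probes did. The lowest adjusted p over the member probes was 0.807 and the lowest over all 33439 probes was 0.634, so 0 probes passed an adjusted p of 0.05 by limma and 2113 passed an unadjusted p of 0.05. The median difference over the 10 members was 0.065 on the log2 scale, beside 0.0075 over all detected genes, and it was 0.0094 without the fetus L5. Of all probes, 1343 passed the unadjusted threshold without L10, and 1 passed the adjusted one without L6. Differences are given throughout as LN minus HN of log2 signal after quantile normalization, so that 1 equals a doubling, and each gene is represented by its probe with the highest mean signal.

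All 21 member probes were well above background on each of the 8 arrays, and 0 spots of any probe were saturated. The arrays held between 32635 and 33371 spots above background in LN and between 33254 and 34369 in HN. Each group had its own slide, so slide and group cannot be told apart. Exact permutation tests of 4 against 4 fetuses reach 0.0286 at the least, and the small number of arrays limits the precision of each difference. Summed hepatocyte markers (log2 21.39 to 21.46 in LN and 21.37 to 21.45 in HN) marked the tissue as liver. Quantile normalization gives the brightest probes nearly the same values on every array, so these sums cannot show whether hepatocyte content was equal. AFP of the same list, picked after its values were seen, ran from 16.09 in L8 to 17.47 in L5. Markers of blood cells were uneven. The summed erythroid markers reached 17.10 in the LN fetus L5 and lay between 13.02 and 15.00 in the other 7 fetuses, and 10 of the 11 detected erythroid genes were higher in LN (median difference 1.14). Of the 10 detected neutrophil markers 9 were higher in LN (median 0.90), with sums of 13.27 to 14.82 in LN and 12.42 to 13.68 in HN. Lymphocyte markers went the other way, with 7 of 7 detected genes lower in LN (median -0.35, sums of 13.20 to 13.35 in LN and 13.30 to 13.54 in HN), as did macrophage markers, with 8 of 9 lower (median -0.14, sums of 17.59 to 18.35 in LN and 17.70 to 18.36 in HN). The lowest macrophage sums were those of L9 (17.59) in LN and L2 (17.70) in HN, beside 17.95 to 18.36 in the other fetuses. How far the macrophage direction rests on L9 was not tested. Stellate and fibroblast markers were lower in LN for 6 of 8 genes (median -0.23), and endothelial markers were higher for 6 of 8 (median 0.10). In such bulk RNA, fewer cells of a type and less RNA per cell cannot be told apart.

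**Figure D1:**
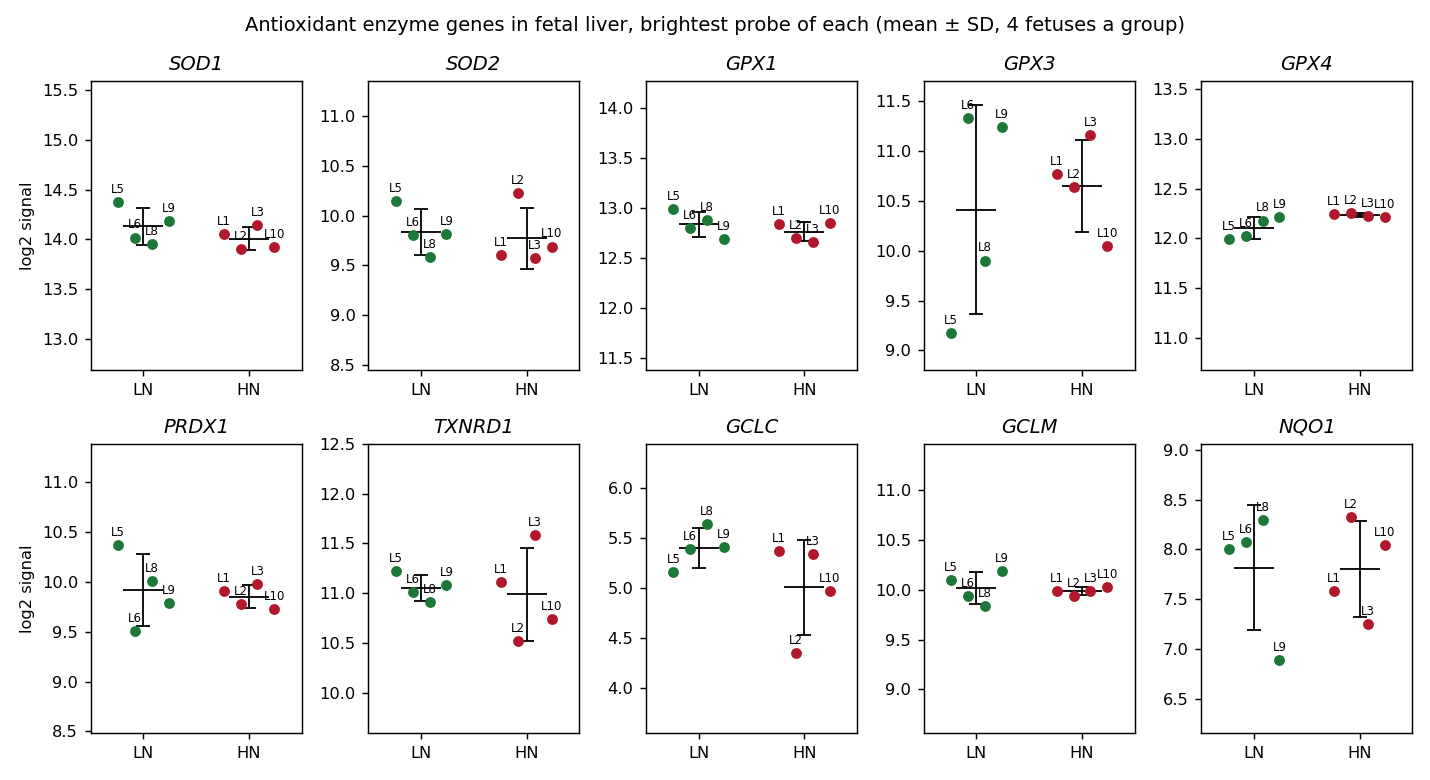
Log2 signal (vertical axis, quantile normalized, each panel spanning the same number of log2 units) of the brightest probe of each antioxidant enzyme gene in 4 LN (green) and 4 HN (red) fetuses, with the group mean and SD as bars. The groups overlap in every panel but that of GPX4, and the points of GPX3 and NQO1 lie farthest apart within the groups.

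SOD1, the copper and zinc dismutase of the cytosol that red blood cells also carry in quantity (NM_174615), was measured by 4 probes. Its brightest probe read 14.37, 14.02, 13.95 and 14.18 in the LN fetuses L5, L6, L8 and L9, and 14.06, 13.91, 14.15 and 13.93 in the HN fetuses L1, L2, L3 and L10. L5 and L9 lay above all HN fetuses, and L6 and L8 lay within the HN range. The group means were 14.13 ± 0.187 (SD, n = 4) in LN and 14.01 ± 0.113 (SD, n = 4) in HN, a difference of 0.12 (SE 0.13, 95% confidence interval -0.17 to 0.42, exact permutation p = 0.314). All 4 probes were higher in LN, by 0.080 to 0.14. Without L5, the fetus with the highest erythroid sum, the SOD1 difference was 0.042, and the part of blood cells in the difference was not tested.

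SOD2, the manganese dismutase of mitochondria (NM_201527), read 10.15, 9.80, 9.58 and 9.81 in L5, L6, L8 and L9 and 9.61, 10.23, 9.57 and 9.69 in L1, L2, L3 and L10. One fetus of each group, L5 and L2, stood above the other 6, which lay within 9.57 and 9.81. The mean difference was 0.064 (SE 0.18, 95% confidence interval -0.36 to 0.48, exact permutation p = 0.629). The other SOD2 probe differed by 0.087 and placed the same fetuses on top, with L5 at 9.27 and L2 at 9.33. The sign for SOD2 rested on single fetuses, as it turned to -0.040 without L5 and to -0.0035 without L3.

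The 3 glutathione peroxidases are selenoproteins that reduce peroxides at the expense of glutathione, and they varied in very different ways. GPX1, the abundant cytosolic enzyme (NM_174076), was among the steadiest genes, at 12.99, 12.80, 12.88 and 12.69 in L5, L6, L8 and L9 and 12.84, 12.70, 12.66 and 12.85 in L1, L2, L3 and L10. The highest fetus was 1.25-fold above the lowest. The groups overlapped in part, with L5 and L8 above all HN fetuses and L3 below all LN fetuses. The means were 12.84 ± 0.126 in LN and 12.76 ± 0.097 in HN (SD, n = 4 each), a difference of 0.076 (SE 0.11, 95% confidence interval -0.19 to 0.34, exact permutation p = 0.429). The difference was 0.027 without L5 and 0.13 without L9. The other GPX1 probe differed by -0.0070, and the mean over both probes by 0.034.

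GPX3, the secreted plasma enzyme (NM_174077), was the most variable member. Its brightest probe read 9.18, 11.33, 9.90 and 11.24 in L5, L6, L8 and L9, so that the lowest and the highest of the 8 fetuses, 4.44-fold apart, both belonged to LN. The HN fetuses L1, L2, L3 and L10 read 10.76, 10.64, 11.16 and 10.04 and fell inside the LN range. The SD within groups, 0.81, was larger than that of 96.4% of all detected genes, whose median was 0.23. The means of 10.41 ± 1.05 in LN and 10.65 ± 0.462 in HN (SD, n = 4 each) differed by -0.24 (SE 0.48, 95% confidence interval -1.34 to 0.86, exact permutation p = 0.686), an interval that runs from 0.396-fold to 1.81-fold. Without L5 the difference was 0.17 and without L6 it was -0.54, so its direction depended on which LN fetus was counted.

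The spread of GPX3 was seen at more than 1 probe. All 4 probes gave a lower LN mean, by -0.26 to -0.15. The 3 brighter probes followed each other closely over the 8 fetuses (Pearson r of 0.984 to 0.988, exact permutation p of at most 4.96e-05), whereas the dimmest probe placed L1 and L2 above L6 and L9 and correlated less with the others (r of 0.833 to 0.880). The position of L5 at the bottom was shared by every GPX3 probe.

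GPX4, which reduces lipid hydroperoxides within membranes (NM_174770), was the steadiest member. The LN fetuses L5, L6, L8 and L9 read 11.998, 12.02, 12.18 and 12.21, and the HN fetuses L1, L2, L3 and L10 read 12.24, 12.26, 12.22 and 12.21. Every HN value lay above every LN value, by only 0.0032 between L10 and L9. GPX4 was the 1 member of 10 whose groups did not overlap, beside 4.14% of all detected genes and 1.56% for those lower in LN. The means of 12.10 ± 0.108 in LN and 12.23 ± 0.0198 in HN (SD, n = 4 each) differed by -0.13 (SE 0.10, 95% confidence interval -0.37 to 0.11), with an exact permutation p of 0.0286, the smallest possible here, and an unadjusted limma p of 0.238 (adjusted p = 0.852). Its SD was larger than that of only 2.28% of the detected genes. At the other GPX4 probe the difference was again -0.13 but the groups overlapped (10.80, 10.40, 10.70 and 10.68 in L5, L6, L8 and L9 against 10.80, 10.94, 10.54 and 10.83 in L1, L2, L3 and L10, exact permutation p = 0.40). The groups also overlapped under scaling by the 75th percentile of each array and in the mean over a gene's probes.

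**Figure D2:**
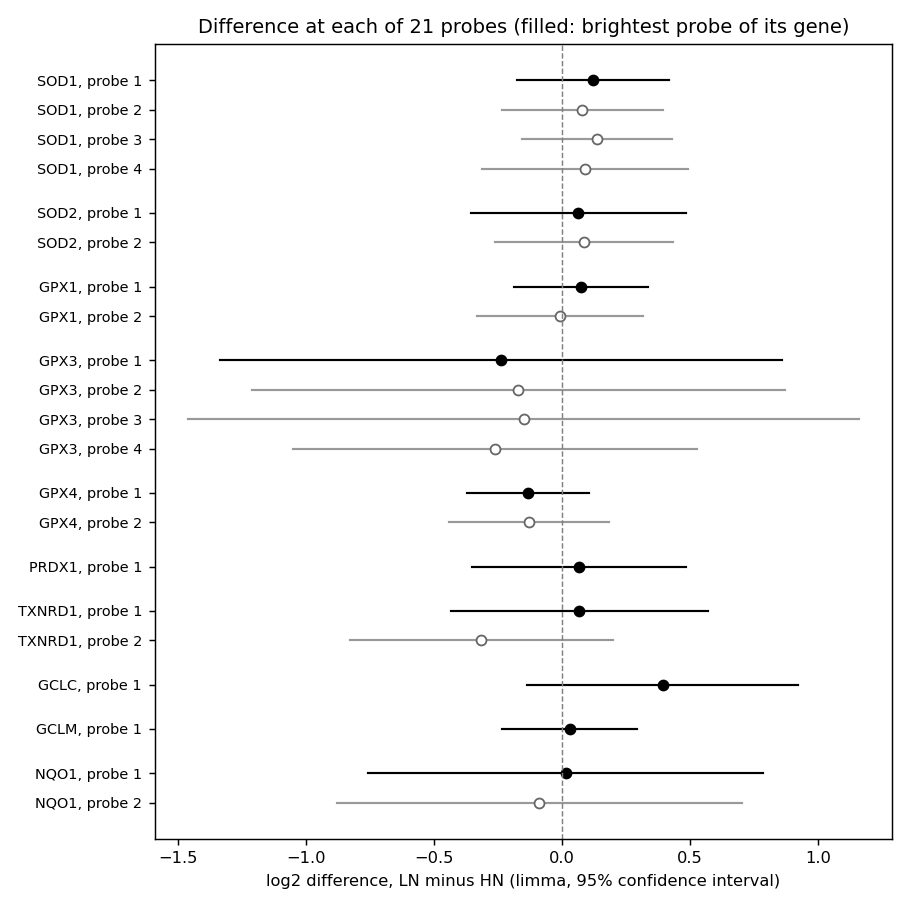
Difference in log2 signal, LN minus HN, at each of the 21 member probes (horizontal axis) with the 95% confidence interval from limma, filled points marking the brightest probe of each gene. Every interval contains 0, and the intervals of GPX3 and NQO1 are the widest.

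PRDX1, a peroxiredoxin that uses thioredoxin to remove peroxide (NM_174431), had 1 probe. It read 10.36, 9.51, 10.01 and 9.79 in L5, L6, L8 and L9 and 9.91, 9.78, 9.98 and 9.73 in L1, L2, L3 and L10. The highest and the lowest fetus were both LN, and the HN values lay between them. The difference was 0.067 (SE 0.18, 95% confidence interval -0.35 to 0.48, exact permutation p = 0.714), and it became -0.083 without L5. L5 also had the highest 75th percentile of signal before normalization, 841 against 511 to 785 on the other arrays. Across the 8 fetuses PRDX1 correlated with this measure of brightness (Pearson r = 0.75, exact permutation p = 0.0246, adjusted p = 0.538, Spearman rho = 0.64, exact permutation p = 0.0962, adjusted p = 0.778). Without L5 and L6, the arrays farthest from the median brightness, r was 0.32. Leaving out the extremes also narrows the range of brightness, so this drop cannot show whether the relation rests on those fetuses.

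TXNRD1, the cytosolic selenoprotein that recycles thioredoxin (NM_174625), varied mainly within HN. The LN fetuses L5, L6, L8 and L9 lay close together at 11.22, 11.01, 10.91 and 11.09, and the HN fetuses L1, L2, L3 and L10 at 11.11, 10.52, 11.58 and 10.74 took both ends of the range, L2 lowest and L3 highest. The SD was 0.131 in LN and 0.464 in HN (n = 4 each). The difference was 0.068 (SE 0.22, 95% confidence interval -0.43 to 0.57, exact permutation p = 0.83). It was 0.27 without L3, -0.088 without L2 and -0.014 without L10. A second, dim probe pointed the other way, at 5.32, 5.80, 5.36 and 6.00 in L5, L6, L8 and L9 against 5.84, 5.56, 6.44 and 5.91 in L1, L2, L3 and L10, with a difference of -0.32 (SE 0.23, exact permutation p = 0.229). Both probes placed L3 highest, but they ranked the other fetuses differently (Pearson r = 0.51, exact permutation p = 0.188).

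**Figure D3:**
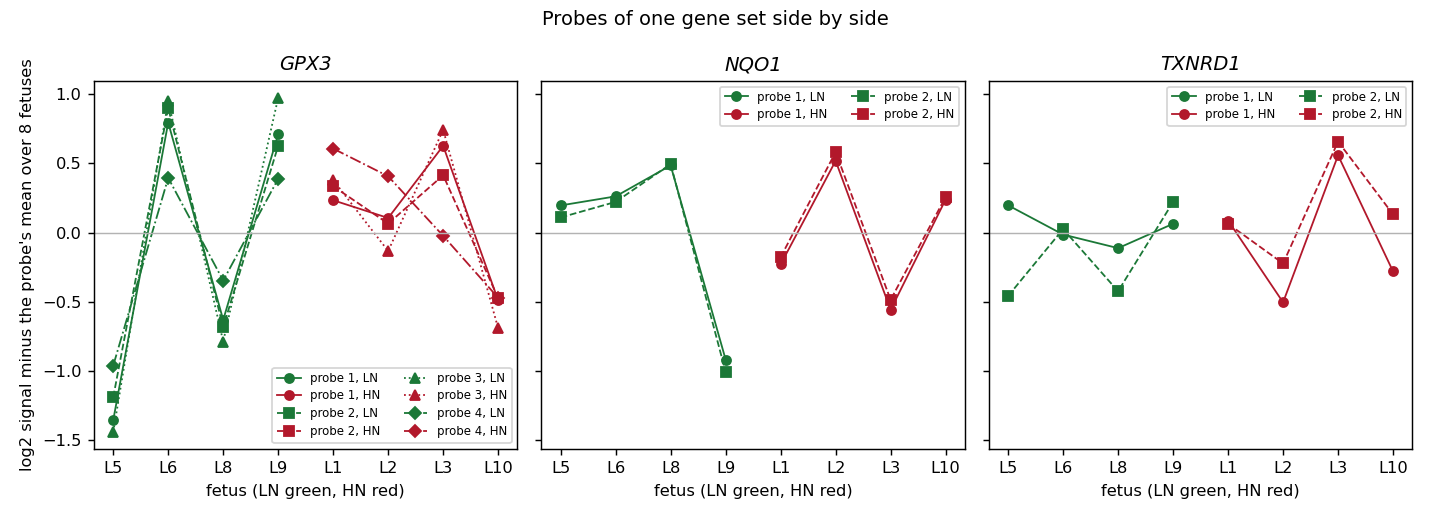
Log2 signal of each probe minus its mean over the 8 fetuses (vertical axis) for GPX3, NQO1 and TXNRD1 by fetus (horizontal axis), with LN in green, HN in red, and 1 marker shape for each probe. The probes of NQO1 and the 3 brighter probes of GPX3 trace the same fetuses, and the probes of TXNRD1 part in L5, L8 and L10.

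Glutamate-cysteine ligase has a catalytic subunit, GCLC, and a modifier subunit, GCLM, that raises its activity. GCLC (NM_001083674) had the largest difference of the 10 members, a rank that it lost to GPX3, SOD1 and GPX4 under normexp background correction. Its only probe was dim and read 5.15, 5.40, 5.64 and 5.41 in L5, L6, L8 and L9 and 5.37, 4.35, 5.34 and 4.96 in L1, L2, L3 and L10. L2 and L10 lay below all LN fetuses, while L1 and L3 lay among them. The means of 5.40 ± 0.199 in LN and 5.01 ± 0.474 in HN (SD, n = 4 each) differed by 0.39, or 1.31-fold (SE 0.23, 95% confidence interval -0.13 to 0.92 on the log2 scale, exact permutation p = 0.143, adjusted p = 0.807 in limma). It came to 0.17 without L2, and 0.11 when the background was corrected by normexp instead of by the scanner software. Without L5 the groups of GCLC did not overlap.

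GCLM (NM_001038143) read 10.09, 9.94, 9.84 and 10.19 in L5, L6, L8 and L9 and 9.99, 9.93, 9.99 and 10.03 in L1, L2, L3 and L10. The 4 HN fetuses sat within the LN range, and the highest of the 8 values was 1.28-fold above the lowest. The difference of 0.031 (SE 0.12, 95% confidence interval -0.23 to 0.29, exact permutation p = 0.657) turned to -0.028 without L9. A difference of more than 1.23-fold in either direction lies outside this interval, whereas for GCLC the interval extends to 1.89-fold.

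NQO1, which reduces quinones by a pair of electrons and is a standard readout of NRF2 activity (NM_001034535), was nearly equal on average and variable within both groups. The fetuses L5, L6, L8 and L9 read 8.01, 8.07, 8.29 and 6.89, and L1, L2, L3 and L10 read 7.58, 8.33, 7.25 and 8.05. The lowest fetus, L9, was LN and the highest, L2, was HN, 2.70-fold apart. The SD within groups, 0.56, was larger than that of 90.4% of the detected genes, and the difference was 0.014 (SE 0.34, 95% confidence interval -0.76 to 0.79, exact permutation p = 0.971). The other NQO1 probe followed the same fetuses almost exactly (Pearson r = 0.993, exact permutation p = 4.96e-05) with a difference of -0.089. No direction can be given for NQO1, since the sign turned under several settings and the difference was 0.32 without L9 and -0.17 without L3.

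The members ordered the fetuses in different ways. L9, which was lowest for NQO1, was highest for GCLM, and L3, which was next lowest for NQO1, was highest for TXNRD1. L2 held the highest value of SOD2, NQO1 and GPX4 and the lowest of SOD1, TXNRD1 and GCLC, and L5 held the highest of SOD1, GPX1 and PRDX1 and the lowest of GPX3 and GPX4. Of 45 pairs of members correlated over the 8 fetuses, 3 had an unadjusted Pearson p of at most 0.05 and 0 passed after adjustment over the 45 pairs (lowest adjusted p 0.502). GPX1 and GPX3 ran against each other (Pearson r = -0.82, exact permutation p = 0.0141, adjusted p = 0.502, Spearman rho = -0.79, exact permutation p = 0.0279, adjusted p = 0.331). Their r was -0.61 without L3 and L5 and -0.83 with group means subtracted, which also takes out the slide. GCLC and SOD2 also ran against each other (Pearson r = -0.72, exact permutation p = 0.0389, adjusted p = 0.502, Spearman rho = -0.43), with r of -0.71 without L2 and L10 and -0.94 with group means subtracted. So did GPX3 and PRDX1 (Pearson r = -0.72, exact permutation p = 0.0395, adjusted p = 0.502, Spearman rho = -0.60), with r of -0.088 without L5 and L8 and -0.71 with group means subtracted. SOD1 and TXNRD1 had the highest rank correlation (Spearman rho = 0.88, exact permutation p = 0.0072, adjusted p = 0.326, Pearson r = 0.70, exact permutation p = 0.0559, adjusted p = 0.502), with r of 0.97 without L5 and L9 and 0.72 with group means subtracted.

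Members were also set against marker levels of liver cell types. The relations of the 10 members to array brightness and to 8 marker sums made 90 in all, of which 6 had an unadjusted Pearson p of at most 0.05 and 0 passed after adjustment over the 90 (lowest adjusted p 0.40). Chance alone passes that unadjusted threshold in about 1 of 20 relations, and the 6 include that of PRDX1 to brightness. GPX3 followed the summed bile duct markers (Pearson r = 0.87, exact permutation p = 0.0056, adjusted p = 0.40, Spearman rho = 0.98, exact permutation p = 0.000397, adjusted p = 0.0357), with r of 0.85 without L6 and L9 and 0.92 with group means subtracted. This sum was 12.87 to 13.30 in LN and 12.93 to 13.14 in HN, held 3 detected genes of 4, and was mostly KRT19, a keratin, which was lowest in L5 (12.29) and highest in L6 (13.08) as GPX3 was. EPCAM, another marker of bile duct cells, was instead highest in L5 (11.04) and lowest in L9 (9.29). TXNRD1 was lower where the stellate and fibroblast markers were higher (Pearson r = -0.86, exact permutation p = 0.0089, adjusted p = 0.40, Spearman rho = -0.74, exact permutation p = 0.0458, adjusted p = 0.778), with r of -0.58 without L2 and L3 and -0.88 with group means subtracted. Those markers summed to 17.52 in L2 and 16.42 in L3, the fetuses with the lowest and the highest TXNRD1. SOD1 was likewise lower where these markers were higher (Pearson r = -0.75, exact permutation p = 0.0353, adjusted p = 0.538, Spearman rho = -0.76, exact permutation p = 0.0368, adjusted p = 0.778), with r of -0.87 without L2 and L3 and -0.70 with group means subtracted. SOD1 was higher where the erythroid sum was higher (Pearson r = 0.77, exact permutation p = 0.0338, adjusted p = 0.538, Spearman rho = 0.60, exact permutation p = 0.132, adjusted p = 0.778), with r of 0.68 without L1 and L5 and 0.72 with group means subtracted. GPX4 ran against the erythroid sum (Pearson r = -0.72, exact permutation p = 0.0359, adjusted p = 0.538, Spearman rho = -0.55, exact permutation p = 0.171, adjusted p = 0.778). Its r was -0.21 without L1 and L5, whose omission also narrows the range of the erythroid sum. GPX1 and the neutrophil sum had a Pearson r of -0.48 over the 8 fetuses (exact permutation p = 0.225, adjusted p = 0.744, Spearman rho = -0.40, exact permutation p = 0.327, adjusted p = 0.865), -0.30 without L9 and L10, and -0.98 with group means subtracted, for which no p was computed. This relation was picked after the values were seen, because its r with group means subtracted was the most extreme of the 90. The part of these cells in the levels of GPX1, GPX3, TXNRD1, SOD1 and GPX4 was not tested.

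Around the 10 enzymes, 9 lists of the wider antioxidant system held 123 genes, of which 107 had a probe and 100 were detected. Of these 51 were higher and 49 lower in LN, with a median difference of 0.021. In limma 4 of the 100 had an unadjusted p of at most 0.05 (4% beside 6.05% of all detected genes), 0 passed after adjustment, and 3 had groups without overlap (3% beside 4.14% of all detected genes). The count of 4 became 2 without L10 and 10 without L3. The list medians ran from -0.15 for NADPH supply to 0.14 for the thioredoxin and glutaredoxin system. In the NADPH supply list, which takes in pentose phosphate enzymes whether or not they make NADPH, 8 of 11 genes were lower in LN. In the thioredoxin and glutaredoxin list 7 of 10 were higher. Both medians shrank when 1 fetus was left out, to -0.070 for NADPH supply without L9 and to 0.063 for the thioredoxin and glutaredoxin system without L10. No member of either list reached an unadjusted p of 0.05. TALDO1, the transaldolase of the pentose phosphate pathway, was 0.22 higher in LN without overlap (exact permutation p = 0.0286, limma adjusted p = 0.787), against IDH1 at -0.36 in the same NADPH list.

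In the list for glutathione synthesis and turnover, the largest differences were those of CTH and GGT5. CTH, which makes cysteine from cystathionine and so feeds the ligase, read 8.61, 8.44, 8.37 and 8.23 in L5, L6, L8 and L9 and 8.16, 7.79, 7.86 and 7.26 in L1, L2, L3 and L10. All LN fetuses lay above all HN fetuses. The difference was 0.64 (SE 0.19, exact permutation p = 0.0286, unadjusted limma p = 0.0092, adjusted p = 0.760), it lay between 0.47 and 0.77 when each fetus was left out in turn, and a second CTH probe gave 0.70. GGT5, a gamma-glutamyl transferase, differed by -0.58 (SE 0.27, exact permutation p = 0.114), with -0.94 to 0.029 over its 3 probes and -0.30 under normexp, and the glutathione list as a whole had a median of -0.0034, with 6 genes higher and 7 lower, which became 0.034 without L10.

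SLC30A10, a manganese exporter of hepatocytes and so linked to the metal of SOD2, read 6.71, 6.78, 7.28 and 6.997 in L5, L6, L8 and L9 and 7.49, 7.54, 7.39 and 7.65 in L1, L2, L3 and L10. Every LN fetus lay below every HN fetus, with a difference of -0.58 (SE 0.15, exact permutation p = 0.0286, unadjusted limma p = 0.0038, adjusted p = 0.760). The manganese importers SLC39A14 and SLC39A8 differed by 0.30 and 0.16, with exact permutation p of 0.314 and 0.143, and by 0.13 and 0.039 in the mean over each gene's probes. Without L2 the difference of SLC39A14 was 0.15.

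Among regulators and targets of NRF2, 12 of 17 detected genes were higher in LN (median 0.065, 0.024 without L10), and the largest difference in that list was that of MAFF, a small Maf protein that pairs with NRF2. MAFF read 8.57, 9.69, 9.84 and 9.45 in L5, L6, L8 and L9 and 9.20, 8.67, 8.38 and 8.40 in L1, L2, L3 and L10, and L5 lay within the HN range (difference 0.72, SE 0.30, exact permutation p = 0.0857, limma unadjusted p = 0.0392, adjusted p = 0.785). EPHX1, an epoxide hydrolase, differed by -0.48 (-0.73 without L3) and OSGIN1 by 0.37 (0.22 without L10). SRXN1, which restores over-oxidised peroxiredoxins such as PRDX1 and was counted in the thioredoxin list, differed by 0.75 (SE 0.53), by 0.31 without L2 and by 1.15 without L3, and ranged from 8.06 in L2 to 10.64 in L9 with overlapping groups (exact permutation p = 0.343).

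Of 18 detected genes for selenoproteins and selenocysteine synthesis, the system that GPX1, GPX3, GPX4 and TXNRD1 draw on, 10 were higher and 8 lower in LN. SCLY, which recovers selenium from selenocysteine, differed by -0.54 (SE 0.22, exact permutation p = 0.0857, unadjusted limma p = 0.0377, above 0.05 in 5 of 8 omissions of a fetus), and PSTK, a kinase that prepares the selenocysteine tRNA, by 0.54 (SE 0.27, exact permutation p = 0.143). With normexp SCLY differed by -0.33 and PSTK by 0.28. Of the remaining lists, other enzymes of superoxide and peroxide removal had a median of -0.022 (GPX8 -0.36, PRDX2 -0.29, PRDX4 0.11), enzymes that make superoxide or peroxide a median of -0.067, or -0.018 without L9 (MAOA 0.38, DAO -0.27, AOX1 0.26), and repair of oxidised protein and nucleotides a median of -0.056 (APEX1 0.21, MUTYH -0.21, OGG1 -0.16). Several of these values rested on single fetuses or settings, as GPX8 was -0.062 without L9, PRDX2 -0.093 without L2, DAO -0.096 with normexp and AOX1 0.11 in the mean over its probes. MAOA was 0.21 with normexp and 0.59 without L8, PRDX4 was 0.070 without L5 and 0.18 without L10, and OGG1 was -0.063 without L6 and -0.26 without L8.

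**Figure D4:**
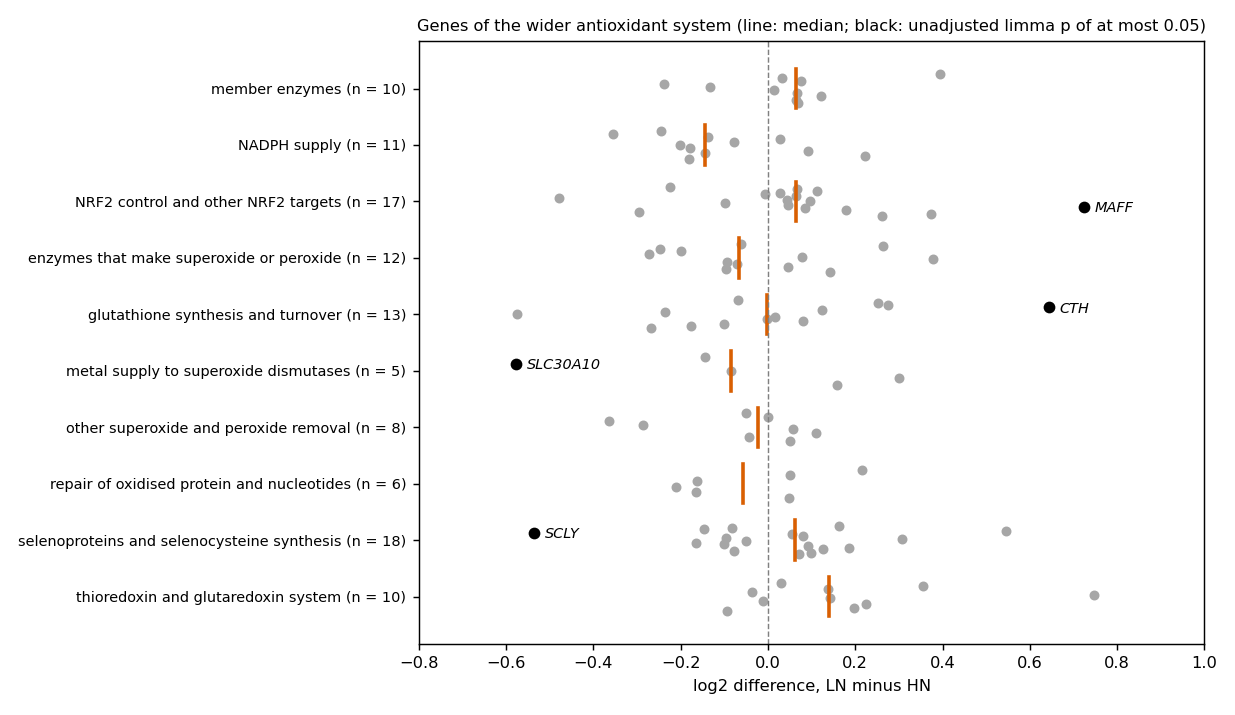
Difference in log2 signal, LN minus HN (horizontal axis), of each detected gene in the 10 members and the 9 lists of the wider antioxidant system, with the list median as an orange line and genes with an unadjusted limma p of at most 0.05 in black and named. The members scatter around 0 like the lists, and the black points are MAFF and CTH on the right and SLC30A10 and SCLY on the left.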

How the data were processed

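Per the labels and methods, RNA came from frozen or RNAlater-stored liver, and the authors scanned 1-colour arrays with Agilent Feature Extraction 11.0.1.1. The deposited intensities had been corrected for background and for trends across the array by that software and were not normalized between arrays. The log2 values that the authors also deposited, for 31068 probes and with quantile normalization, served as an alternative only. One text of the series mentions RNA pooled by group, whereas the labels name 1 fetus for each array, and the labels were followed. Whether samples differed in storage by group is not given in the sources used here.

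Of the 43803 spots per array other than controls, those marked as outliers were removed (16 probes lost), replicate spots were averaged, and log2 intensities were quantile normalized. Detection required a signal well above background on 4 or more of the 8 arrays. Probe accessions were looked up in a RefSeq table (assembly ARS-UCD2.0), which gave 12603 genes for 26740 probes. No coordinates are printed because the array's design used another build. The 2-sided comparison of the groups used lmFit and eBayes (limma 3.58.1, R 4.3.3) with Benjamini-Hochberg adjustment over 33439 probes. Permutation tests were exact and 2-sided, over every division of the 8 fetuses for differences and, with scipy 1.17.1, over 40320 orders for correlations. Functions were tested on simulated data. All members are named. The named genes of the wider system were drawn from the 3 of largest absolute difference in each list. Of the marker genes, the 3 detected ones of the bile duct list are named, and AFP was picked after its values were seen. For 1 gene of the wider lists no value is reported here, but it stays in the counts and medians. The members, lists and relations were chosen with earlier results of these data known.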

Additional observations from a re-analysis of the deposited data

Results flagged for a closer look

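The values of each member probe were searched within each group of 4 fetuses for a fetus far from the others by Dixon's test, 42 groups in all, and chance alone picks out about 1 group in 20. The test picked out 1. At the dimmer of the SOD2 probes, the HN fetus L2 read 9.33 and the nearest HN fetus 8.87, and this gap was 0.869 of the whole HN range, above the test's 95% critical value for 4 samples. The brighter SOD2 probe also read highest in L2 (10.23).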

How the results depend on the processing

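The results were recomputed with each array scaled to its 75th percentile, with normexp (offset 50), from the authors' log2 table, with dim probes kept, with probes detected on every array, with a trended robust eBayes, with slide position as a block, with the mean over a gene's probes, by the methods' Student's t-test, and without each fetus in turn. Under all of these 0 of the 10 members reached an unadjusted p of 0.05, and SOD1, GPX1, GPX4 and GCLC kept their direction. The cause of the changes below was not tested. NQO1 turned to -0.038 with the mean over probes, -0.060 with normexp, -0.035 with 75th percentile scaling, -0.060 without L1, -0.17 without L3, -0.049 without L5, -0.071 without L6 and -0.15 without L8, and was 0.32 without L9. TXNRD1 turned to -0.12 with the mean over probes, -0.014 without L10 and -0.088 without L2, and was 0.27 without L3. Single omissions also turned SOD2 (-0.0035 without L3, -0.040 without L5, 0.21 without L2), PRDX1 (-0.083 without L5, 0.20 without L6), GCLM (-0.028 without L9, 0.090 without L8), GPX3 (0.17 without L5, -0.54 without L6), TXNIP of the thioredoxin list (0.23, -0.15 without L6, 0.54 without L5) and the medians of the repair list (0.0037 without L5, 0.0049 without L6, -0.078 without L1), the glutathione list (0.034 without L10, 0.0092 without L8) and the list for other superoxide and peroxide removal (0.016 without L6, 0.0055 without L10, 0.0039 without L8). Without L3 the median of the glutathione list was instead -0.086 and that of other superoxide and peroxide removal -0.095. The median member difference was 0.0094 without L5 and 0.088 without L9. Members without overlap numbered 0 with the mean over probes or 75th percentile scaling and 1 to 2 when fetuses were left out, 2 without L5. Genes of the wider lists at an unadjusted p of 0.05 numbered 2 (without L10) to 10 (without L3). Probes at an unadjusted p of 0.05 numbered 1343 (without L10) to 2639 (without L3), and 1518 to 2963 under the other settings. Probes at an adjusted p of 0.05 numbered 0 to 1, the latter without L6. CTH and SLC30A10 stayed at an unadjusted p of at most 0.05 whichever fetus was left out, whereas MAFF did so in 2 of 8 omissions and SCLY in 3 of 8. MAFF also lost it with slide position as a block, with the Student's test and with dim probes kept, and SCLY with the Student's test. No paired analysis was possible because LN and HN share no replicate numbers, and slide position matches places on the slides and not fetuses.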
